A study of Mus musculus with 4 samples.

Results

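The genes described here encode proteins of the cytotoxic granule, the secretory lysosome with which T cells and natural killer (NK) cells kill. They are Prf1, Gzmb, Gzma, Gzmk, Gzmm, Nkg7 and Ctsw, chosen by gene symbol, and each of the 7 matched 1 row among the 53647 genes counted. The libraries came from spinal cord of C57BL/6J mice, an inbred strain, which were aged, and the tissue was taken 28 days after spinal cord injury. Mice had received an antibody against CD8 (Anti-CD8, 2 libraries) or IgG (2 libraries), and all 4 libraries were from injured cord at the lesion segment. Sources used here do not give the exact age, the dose of antibody or the number of mice behind a library, and p-values refer to the spread between libraries alone. Cells were dissociated enzymatically, myelin was removed with beads, and transcripts were counted by droplet-based 3′ sequencing as unique molecular identifiers (UMIs).

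CD8, the target of the antibody, is the co-receptor of T cells that recognise peptides on MHC class I. When such a T cell or an NK cell meets a target, granules fuse with its membrane, perforin (Prf1) makes pores, and granzymes enter the target and cleave its proteins. Granzyme B cuts after aspartate and triggers apoptosis, granzymes A and K are trypsin-like, and granzyme M cuts after methionine or leucine. Nkg7 is a granule membrane protein that takes part in granule release, and Ctsw encodes cathepsin W, a papain-family protease of lymphocytes.

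RefSeq (build GRCm38.p6, older than the GRCm39 of the counts) placed Gzma and Gzmk next to each other on chromosome 13, and Gzmb on chromosome 14 after Gzmn, Gzmf and Gzmc. The promoters of Gzma and Gzmk are shown because these adjacent genes were highest in different cells, and that of Nkg7 because it was the member that passed the test between the antibodies in T cells. Each runs from 250 bases before to 50 after the gene start, and lies at chr13:113100932-113101231 (Gzma, minus strand), chr13:113180916-113181215 (Gzmk, minus strand) and chr7:43436888-43437187 (Nkg7, plus strand). Capitals mark matches, on either strand, to 2 motifs of transcription factor families of cytotoxic lymphocytes, the T-box motif GGTGTGA (reverse TCACACC) and the RUNX motif TGTGGT (reverse ACCACA).
Gzma: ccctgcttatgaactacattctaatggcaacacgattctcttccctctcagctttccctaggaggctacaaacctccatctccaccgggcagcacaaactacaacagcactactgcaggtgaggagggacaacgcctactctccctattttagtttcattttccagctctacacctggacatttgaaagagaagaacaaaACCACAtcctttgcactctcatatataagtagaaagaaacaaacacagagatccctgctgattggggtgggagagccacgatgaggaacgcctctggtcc
Gzmk: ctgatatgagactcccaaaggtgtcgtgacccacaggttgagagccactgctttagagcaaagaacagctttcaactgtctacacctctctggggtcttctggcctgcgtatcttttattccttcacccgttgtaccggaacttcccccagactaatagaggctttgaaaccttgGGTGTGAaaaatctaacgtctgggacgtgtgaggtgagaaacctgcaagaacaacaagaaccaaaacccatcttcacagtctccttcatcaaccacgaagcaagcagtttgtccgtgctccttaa
Nkg7: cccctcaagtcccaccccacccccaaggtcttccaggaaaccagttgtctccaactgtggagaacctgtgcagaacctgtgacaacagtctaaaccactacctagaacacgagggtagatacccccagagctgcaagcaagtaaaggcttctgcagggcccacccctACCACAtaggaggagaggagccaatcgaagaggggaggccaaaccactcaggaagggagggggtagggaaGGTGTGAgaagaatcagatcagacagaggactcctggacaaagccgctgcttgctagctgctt
Gzma held the RUNX motif starting at position -50 from the gene start and no T-box motif, and Gzmk held the T-box motif at -75 and no RUNX motif. Nkg7 held the RUNX motif at -83 and the T-box motif at -13. The promoter of Prf1 held the RUNX motif at -130 and that of Gzmb held it at -93 and -34. Neither motif contains the other, but the RUNX motif ends in the letters GGT with which the T-box motif starts, so a single stretch can hold both. Of 32851 promoters of the same length 3.98% held the T-box motif, 16.8% the RUNX motif and 0.871% both, with shared letters allowed. A match is a description of these letters and not a binding site. Ctsw had no promoter entry, and Gzmm had 2 promoters.

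The libraries held 152457679 and 170539226 UMIs (Anti-CD8) and 153016369 and 152625351 UMIs (IgG). After filtering, 7481 and 7816 Anti-CD8 cells and 6108 and 6290 IgG cells remained. Clusters were named from marker genes that included no granule gene and no CD8 gene. The T cells formed 2 clusters with 414 and 258 Anti-CD8 cells and 325 and 703 IgG cells, at a median of 5922.5 and 6636.5 UMIs a cell (Anti-CD8) and 7209 and 6925 (IgG). The NK class had 73 and 122 Anti-CD8 cells and 17 and 47 IgG cells. A UMI of the CD8 gene Cd8b1 was found in 33.1% and 31.0% of Anti-CD8 T cells and in 80.6% and 67.4% of IgG T cells. The NK class was not pure by its markers: 14 and 39 of its Anti-CD8 cells and 8 and 23 of its IgG cells had a UMI of Cd3d, Cd3e or Cd3g, T-cell receptor subunits. Its level of Cd8b1 was 8.74 and 0 CPM (Anti-CD8) and 185 and 41.4 CPM (IgG), so the NK class of IgG replicate 1 stood apart. In T cells, the summed level of B-cell markers was 681 and 32.5 CPM (Anti-CD8) and 22.1 and 38.1 CPM (IgG), so the T cells of Anti-CD8 replicate 1 stood apart there.

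Levels are given as CPM, the UMIs of a gene scaled to the total UMIs of the cell group in a library, and the order of cell groups below is that of the mean over the 4 libraries (± SD). T cells were split by the UMIs they held: CD8 without Cd4 (called CD8-only), Cd4 without CD8 (Cd4-only), the gamma-delta receptor gene Trdc without either (Trdc-only), and none of these. These splits are ranges of detection, not cell types. Each granule gene had its own order of holders, and the order is a description over 24 cell groups.

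Prf1, the pore former, was highest in NK cells (122 ± 12.05 CPM), then in CD8-only T cells (65.7 ± 12.2) and then in Cd4-only T cells (26.5 ± 9.20). In NK cells it stood at 135 and 130 CPM (Anti-CD8) and 110 and 115 CPM (IgG). In CD8-only T cells the levels were 67.9 and 51.3 CPM (Anti-CD8) and 62.8 and 80.7 CPM (IgG). The 3 ranges did not overlap, so this order held in every library. Below them, T cells with none of the UMIs (19.5 CPM) and Trdc-only T cells (14.6 CPM) were not separated from their neighbours.

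Gzmb did not separate its holders. CD8-only T cells averaged 270 ± 211 CPM and NK cells 235 ± 92.7 CPM, and the first of these came from 538 and 64.5 CPM in the Anti-CD8 libraries and 332 and 145 CPM in the IgG libraries. The largest and the smallest value of CD8-only T cells were both from Anti-CD8 libraries. Cd4-only T cells (94.5 ± 67.9 CPM) and T cells with none of the UMIs (62.0 ± 39.6 CPM) overlapped with their neighbours as well, and Trdc-only T cells had 5.58 CPM.

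The adjacent genes Gzma and Gzmk, whose promoters are printed above, were highest in different cells. Gzma averaged 498 ± 375 CPM in NK cells and 27.2 ± 33.9 CPM in Cd4-only T cells, the next group, and these ranges did not overlap. Gzmk averaged 272 ± 50.9 CPM in CD8-only T cells and 217 ± 69.1 CPM in Cd4-only T cells, which overlapped, against 13.4 CPM in NK cells. Gzmk in CD8-only T cells was 210 and 312 CPM (Anti-CD8) and 250 and 315 CPM (IgG), and in Cd4-only T cells 226 and 268 CPM (Anti-CD8) and 116 and 255 CPM (IgG). In the NK class, the 24 Gzmk UMIs lay in 9 cells, and all of them had a Cd3 UMI. NK cells without a Cd3 UMI, 59 and 83 in the Anti-CD8 libraries and 9 and 24 in the IgG libraries, held no Gzmk UMI, which allows up to 5.08% and 3.61% (Anti-CD8) and 33.3% and 12.5% (IgG) of cells with such a UMI and sets no limit on cells that express the gene. Gzma in those cells stood at 1272 and 464 CPM (Anti-CD8) and 222 and 239 CPM (IgG).

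Nkg7 was highest in CD8-only T cells (1455 ± 128 CPM), then NK cells (1070 ± 128), Cd4-only T cells (652 ± 190) and T cells with none of the UMIs (414 ± 41.0), with no overlap between the first 2. In CD8-only T cells it stood at 1349 and 1346 CPM (Anti-CD8) and 1522 and 1602 CPM (IgG). In NK cells it stood at 995 and 1038 CPM (Anti-CD8) and 1260 and 989 CPM (IgG). Ctsw had the reverse order of the leading pair, with 510 ± 23.3 CPM in NK cells and 314 ± 36.5 CPM in CD8-only T cells. Ctsw in NK cells varied little, at 538 and 519 CPM (Anti-CD8) and 486 and 497 CPM (IgG), and its T-cell range did not reach these values.

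**Figure D1:**
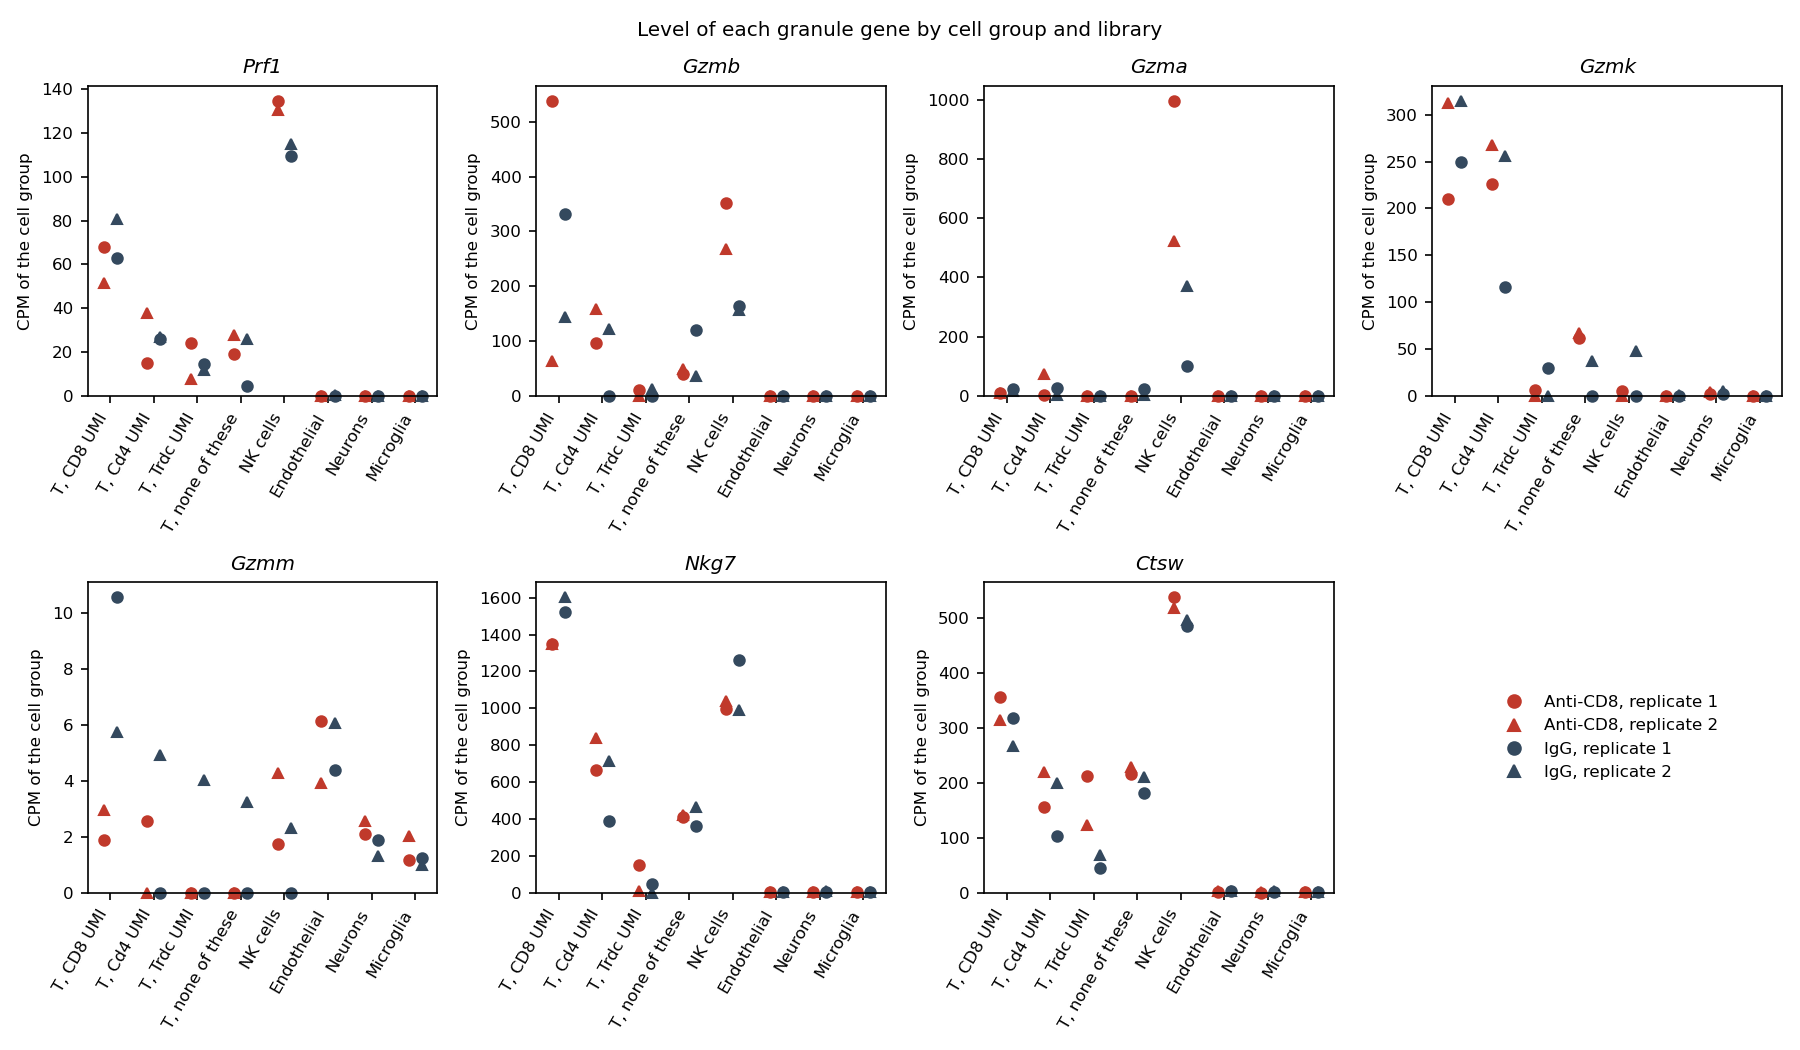
Level of each granule gene, in CPM of the cell group (linear axis from 0, a scale for each gene), for 4 splits of T cells, NK cells, endothelial cells, neurons and microglia. Each point is 1 library, Anti-CD8 in red left of IgG in dark blue, with circles for replicate 1 and triangles for replicate 2. By the mean over libraries, Prf1, Gzma and Ctsw were highest in NK cells, and Gzmk and Nkg7 in CD8-only T cells. For Gzmk, the ranges of CD8-only and Cd4-only T cells overlapped. The 4 libraries of CD8-only T cells were spread from 64.5 to 538 CPM for Gzmb.

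Gzmm differed from the other members in that most of its UMIs lay outside lymphocytes. Cells other than T and NK cells held 97.9% and 97.5% of Gzmm UMIs in the Anti-CD8 libraries and 89.5% and 88.0% in the IgG libraries. T cells were 5.53% and 3.30% of Anti-CD8 cells and 5.32% and 11.2% of IgG cells, and NK cells were fewer. A gene held evenly by all cells would thus also lie mostly outside lymphocytes, and these shares are not levels. Endothelial cells had 6.14 and 3.90 CPM (Anti-CD8) and 4.37 and 6.05 CPM (IgG). Their range overlapped that of CD8-only T cells, which had 1.86 and 2.93 CPM (Anti-CD8) and 10.5 and 5.72 CPM (IgG). Of 1965 endothelial cells, 141 had a Gzmm UMI (7.18%), and 3 of these 141 also had a Cd3 UMI, a share of 2.13% against 1.43% in endothelial cells without Gzmm. An unnamed cluster led by endothelial and pericyte genes together had a Gzmm UMI in 44 of 277 cells (15.9%), at a higher median depth (27828 UMIs against 12900 in endothelial cells). Its level was 6.61 and 4.11 CPM (Anti-CD8) and 6.98 and 6.46 CPM (IgG). Fibroblasts, few in number, held 0 and 3 Gzmm UMIs in 16 and 14 Anti-CD8 cells, and 0 and 4 in 5 and 11 IgG cells. Microglia, the resident macrophages of the cord, had a Gzmm UMI in 1.93% and 3.65% of Anti-CD8 cells and in 2.72% and 2.27% of IgG cells. Their Gzmm level was 1.15 and 2.03 CPM (Anti-CD8) and 1.24 and 0.999 CPM (IgG). All T cells together had 1.63 and 1.14 CPM (Anti-CD8) and 8.99 and 5.13 CPM (IgG). The level was thus higher in T cells than in microglia in both IgG libraries and in Anti-CD8 replicate 1, and lower in Anti-CD8 replicate 2. Whether free RNA adds to these low values was not tested.

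Gzmk was also detected in neurons, where 28 of 471 cells held 39 UMIs. The neurons of the Anti-CD8 libraries had 5 and 10 UMIs and those of the IgG libraries 5 and 19. Neurons held 1 and 2 Nkg7 UMIs in the Anti-CD8 libraries and 1 and 36 in the IgG libraries, and 22 of those 36 lay in 1 cell. Of the 28 neurons, 2 had a Cd3 UMI, both in IgG replicate 2, a share of 7.14% against 0.451% in neurons without Gzmk. Another unnamed cluster had 56 Gzmk UMIs in 15 of 263 cells. All 15 had a Cd3 UMI, against 4.03% of its cells without Gzmk. Whether RNA of T cells adds to the Gzmk counted in neurons was not tested. Microglia had a Gzmk UMI in 0.14% and 0.182% of Anti-CD8 cells and 0.155% and 0.429% of IgG cells.

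In the lymphocytes, granule genes were found together in 1 cell, and most often in T cells with a CD8 UMI. At least 3 of the 7 genes had a UMI in 84.0% and 77.5% of Anti-CD8 T cells with a CD8 UMI and in 87.5% and 84.1% of such IgG cells. Among T cells without a CD8 UMI, the shares were 15.9% and 20.7% (Anti-CD8) and 12.96% and 19.2% (IgG). Cells with a CD8 UMI and cells without one did not overlap, and their median depths were 6963 and 7067 UMIs against 5365 and 6331 in the Anti-CD8 libraries, and 7266 and 7353.5 against 6489.5 and 6049 in the IgG libraries. In NK cells, at least 3 genes were found in 57.5% and 68.0% of Anti-CD8 cells and in 29.4% and 66.0% of IgG cells, with IgG replicate 1, of 17 cells, below the rest.

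The smaller T-cell cluster, led by Trdc, Il17a and Il23r, had the fewest granule genes per cell. At least 3 were found in 0.952% and 4.55% of its Anti-CD8 cells and in 0% and 1.43% of its IgG cells, of 105 and 66 Anti-CD8 cells and 22 and 70 IgG cells. It held no Gzma UMI, which allows up to 2.86% and 4.55% of its Anti-CD8 cells and 13.6% and 4.29% of its IgG cells to have such a UMI, and 1 Gzmk UMI in all. Nkg7 in it stood at 139 and 96.1 CPM (Anti-CD8) and 97.6 and 35.7 CPM (IgG). Ctsw was its most widely detected granule gene, with a UMI in 63 and 41 Anti-CD8 cells and 8 and 34 IgG cells.

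**Figure D2:**
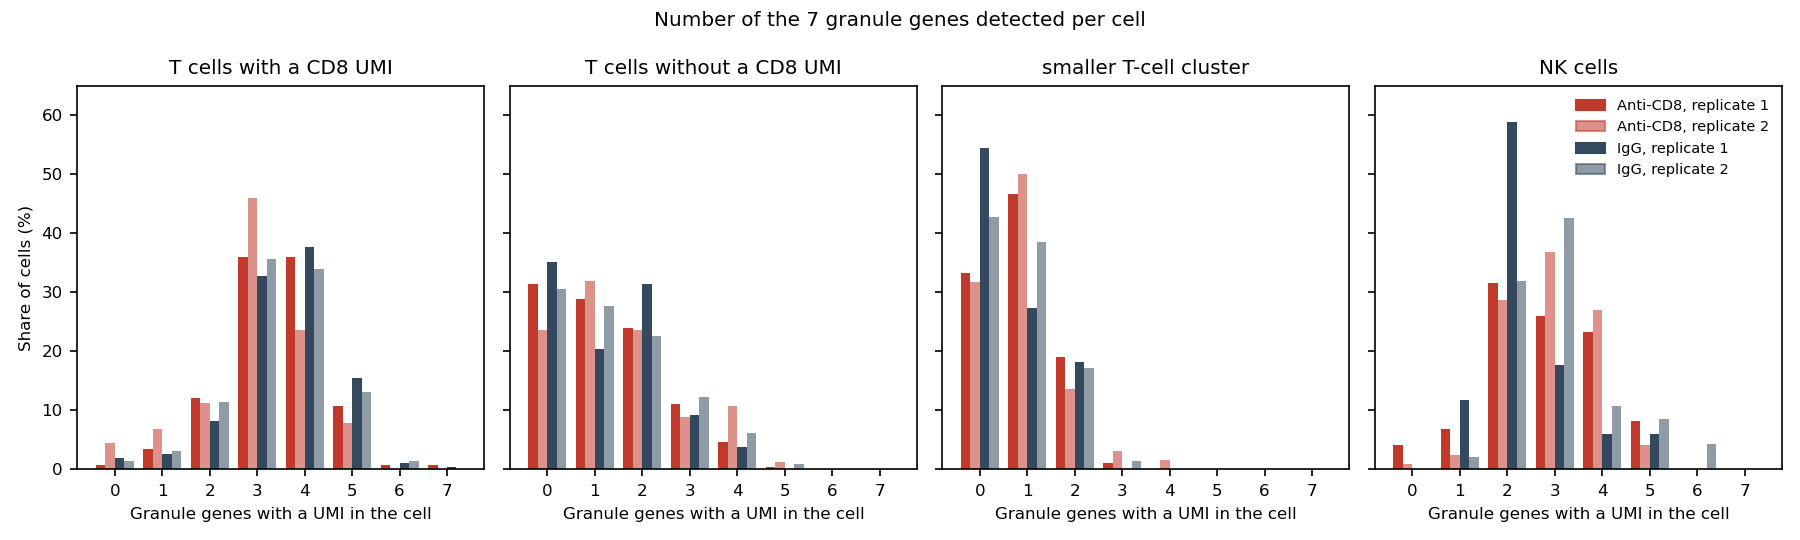
Share of cells (%) by the number of the 7 granule genes with a UMI in the cell, in T cells with a CD8 UMI, in T cells without one, in the smaller T-cell cluster and in NK cells. Each bar is 1 library, Anti-CD8 in red left of IgG in dark blue, with paler bars for replicate 2. T cells with a CD8 UMI most often had 3 or 4 genes, and those of the smaller T-cell cluster 0 or 1.

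Within T cells with a CD8 UMI, Gzmb and Gzmk were not carried alike in all libraries. A Gzmk UMI was present in 41.8% of Gzmb-positive and 67.8% of Gzmb-negative cells of Anti-CD8 replicate 1, and in 53.3% and 81.1% in Anti-CD8 replicate 2. The same shares were 71.4% and 75.6% in IgG replicate 1 and 81.9% and 79.3% in IgG replicate 2. The gap was thus wider in both Anti-CD8 libraries than in both IgG libraries, but the cells behind it were few in Anti-CD8 replicate 2. Gzmb-positive cells with and without a Gzmk UMI numbered 38 and 53 in Anti-CD8 replicate 1 and 8 and 7 in Anti-CD8 replicate 2. They numbered 100 and 40 in IgG replicate 1 and 136 and 30 in IgG replicate 2. Anti-CD8 replicate 1 also stood apart in B-cell markers, and the difference between the antibodies was not tested. In NK cells, Gzmb was found in 57.1% of Gzma-positive cells and 30.0% of Gzma-negative cells, at similar median depth (8571 and 8840.5 UMIs). These shares are descriptions of cells that come from 4 libraries.

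T cells with a CD8 UMI were next set against T cells without one, within each library, in a fit of summed counts with the library as a block. Of the 6 members with enough counts, 5 were higher in cells with a CD8 UMI and none lower, in a fit where 4.97% of 9189 genes were higher and 8.06% lower; each adjusted p is Benjamini-Hochberg adjusted over all genes, from edgeR's quasi-likelihood test. Nkg7 stood at 1337 and 1346 CPM with and 428 and 474 CPM without a CD8 UMI in the Anti-CD8 libraries, and at 1522 and 1590 CPM with and 308 and 453 CPM without in the IgG libraries. The 2 kinds of cells did not overlap, and the log2 fold change was 1.85 (SE 0.11, adjusted p = 1.07e-06). Gzmk rose by 1.69 (SE 0.19, adjusted p = 0.000111), Prf1 by 1.68 (SE 0.20, adjusted p = 0.000173) and Ctsw by 0.83 (SE 0.12, adjusted p = 0.000519) on the log2 scale. Gzmb rose by 1.86 (SE 0.40, adjusted p = 0.00783), with 531 and 64.5 CPM with against 49.9 and 70.8 CPM without a CD8 UMI in the Anti-CD8 libraries, and 332 and 149 CPM against 72.1 and 59.7 CPM in the IgG libraries. By CPM, Gzmb was thus slightly lower with a CD8 UMI in Anti-CD8 replicate 2 and higher in the other 3 libraries. The share of cells went the other way in Anti-CD8 replicate 2. There a Gzmb UMI was found in 15 of 89 cells with and 14 of 169 cells without a CD8 UMI. Gzma, at 0.89 (adjusted p = 0.337), did not pass the test, and Gzmm, with 48 UMIs in 1000 cells with a CD8 UMI and 6 UMIs in 700 cells without, was not tested.

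The cells without a CD8 UMI included the smaller T-cell cluster, so 2 further contrasts were chosen after seeing the data. Within the larger T-cell cluster alone, 4 members were higher with a CD8 UMI (5.28% of 7989 genes called in either direction): Nkg7 by 1.19 (adjusted p = 1.92e-05), Prf1 by 1.12 (adjusted p = 0.00639), Gzmk by 0.90 (adjusted p = 0.00852) and Ctsw by 0.60 (adjusted p = 0.0121). Gzmb had a log2 fold change of 1.16 there (adjusted p = 0.0897). Against Cd4-only T cells, 3 members were higher with a CD8 UMI (3.78% of 7008 genes called in either direction), namely Prf1 by 1.47, Nkg7 by 1.20 and Ctsw by 0.89. Gzmk did not pass that test (0.33, SE 0.16, adjusted p = 0.403), nor did Gzmb (1.04, adjusted p = 0.253) or Gzma (-0.42, adjusted p = 0.866).

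Other genes of the cytotoxic pathway were read in the first split, of all T cells with against all T cells without a CD8 UMI. In that fit 4.97% of 9189 genes were higher and 8.06% lower, and the short lists below were not tested as sets. The cells without one included the smaller T-cell cluster, and values of these genes in the larger cluster alone are not given. Of 8 genes of granule maturation, 2 rose with a CD8 UMI: Cst7, the inhibitor cystatin F (0.86, adjusted p = 0.000444), and Ctsc, the protease that activates granzymes (0.73, adjusted p = 0.00266). Of 9 tested genes of the release machinery, Lyst, a lysosome trafficking regulator (-0.99), and Stx11, a syntaxin of granule fusion (-1.38), fell, with adjusted p of 4.26e-05 and 0.000929. Of 8 death ligands and cytokines, Ccl5 (2.15), Ccl4 (1.53), Xcl1 (1.32) and Fasl (0.52) rose and Tnf (-1.33) fell. Of 8 tested transcription factors, Runx3 (0.73), Hopx (0.68) and Eomes (1.20) rose. Of 4 tested genes listed as granzyme inhibitors, Serpinb1a, a serpin of the cytosol, fell by 4.38 (SE 0.22, adjusted p = 2.87e-07). Whether it inhibits the granzymes described here was not tested. No granzyme outside the members had enough counts in T cells.

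Between the antibodies, Nkg7 was lower in the T cells of the Anti-CD8 libraries, and it was the member that passed the test. Nkg7 stood at 833 and 813 CPM in Anti-CD8 T cells, against 1343 and 1304 CPM in IgG T cells. The groups were far apart relative to their own spread, and Nkg7 fell by 0.71 on the log2 scale (SE 0.10, adjusted p = 0.0161). It was the 1 member called of 7 tested, in a fit where 0.75% of 10270 genes were called, 0.594% were called higher and 0.156% lower. A Nkg7 UMI was found in 63.0% and 63.6% of Anti-CD8 T cells and in 87.7% and 80.5% of IgG T cells, and in 0.84% and 0.73% of Anti-CD8 and 1.01% and 1.85% of IgG microglia, which were 16623.5 and 18541.5 (Anti-CD8) and 21642 and 21700.5 (IgG) UMIs deep at the median. With each T cell thinned to 2000 UMIs, the shares were 54.7% and 52.3% (Anti-CD8) and 80.4% and 74.9% (IgG). The call was lost without Anti-CD8 replicate 2 (-0.71, adjusted p = 0.0596) and in the larger T-cell cluster alone (-0.43, adjusted p = 0.133).

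The other members had log2 fold changes below 0 in T cells and did not pass the test. Prf1 stood at 40.3 and 37.0 CPM in Anti-CD8 and 55.2 and 64.7 CPM in IgG T cells (log2 fold change -0.66, SE 0.15, adjusted p = 0.107). Gzmk stood at 149 and 188 CPM in Anti-CD8 and 217 and 257 CPM in IgG T cells (-0.53, SE 0.15, adjusted p = 0.164). For both genes the groups did not overlap. Gzmm had 4 and 2 UMIs in Anti-CD8 and 22 and 26 UMIs in IgG T cells (-2.23, SE 0.58, adjusted p = 0.146). Gzmb stood at 264 and 68.4 CPM in Anti-CD8 and 294 and 126 CPM in IgG T cells (-0.33, SE 0.53, adjusted p = 0.886), Gzma at 4.48 and 15.4 CPM in Anti-CD8 and 22.1 and 12.03 CPM in IgG T cells (-0.83, adjusted p = 0.606). Both overlapped between the antibodies, as did Ctsw, at 268 and 254 CPM in Anti-CD8 and 291 and 247 CPM in IgG T cells (-0.07, SE 0.13, adjusted p = 0.904). Without IgG replicate 1, Gzmb (0.41) and Ctsw (0.07) had values above 0, and Gzmb did so without Anti-CD8 replicate 2 (0.31). The median log2 fold change of the 7 members was -0.66, beside -0.01 over all genes tested.

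The make-up of the T cells differed between the antibodies at the same time. T cells with a CD8 UMI numbered 150 and 89 (Anti-CD8) and 271 and 490 (IgG), and those without numbered 264 and 169 (Anti-CD8) and 54 and 213 (IgG). The smaller T-cell cluster held 105 of 414 and 66 of 258 Anti-CD8 T cells, and 22 of 325 and 70 of 703 IgG T cells. It was thus a larger part of the T cells in both Anti-CD8 libraries. Trdc stood at 327 and 96.3 CPM in Anti-CD8 and 38.4 and 138 CPM in IgG T cells, which overlapped. A Trdc UMI was found in 14.0% and 6.98% of Anti-CD8 and 2.15% and 6.12% of IgG T cells, which did not overlap. Il23r, at 114 and 148 CPM (Anti-CD8) and 38.0 and 40.8 CPM (IgG), did not overlap either. Within each split the granule genes were then compared between the antibodies.

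Among T cells with a CD8 UMI, no member of 6 tested passed (0.011% of 9100 genes called). Nkg7 stood at 1337 and 1346 CPM in Anti-CD8 and 1522 and 1590 CPM in IgG cells, groups that did not overlap (log2 fold change -0.21, SE 0.13, adjusted p = 0.829). Prf1 stood at 66.7 and 51.3 CPM in Anti-CD8 and 62.8 and 78.5 CPM in IgG cells (-0.24, SE 0.20, adjusted p = 0.881), and Gzmk at 212 and 312 CPM in Anti-CD8 and 250 and 309 CPM in IgG cells (-0.10, SE 0.20, adjusted p = 0.971). These groups overlapped. Ctsw was 356 and 315 CPM in Anti-CD8 and 317 and 270 CPM in IgG cells (0.20, SE 0.16, adjusted p = 0.868). Gzma, at 9.14 and 10.3 CPM in Anti-CD8 and 22.5 and 15.01 CPM in IgG cells, had the largest difference (-0.92, SE 0.39, adjusted p = 0.729). Gzmk changed sign without Anti-CD8 replicate 1 (0.16) or IgG replicate 2 (0.05). An adjusted p that misses the threshold does not show that the levels were alike, and 605 genes had an unadjusted p under 0.05.

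Gzmb in T cells with a CD8 UMI moved with the library left out. It stood at 531 and 64.5 CPM in Anti-CD8 and 332 and 149 CPM in IgG cells, and a Gzmb UMI was found in 60.7% and 16.9% of Anti-CD8 and 51.7% and 33.9% of IgG cells. The log2 fold change was 0.36 (SE 0.66, adjusted p = 0.961). Leaving out Anti-CD8 replicate 1 gave -1.88, and leaving out replicate 2 of that group gave 1.15. Leaving out IgG replicate 1 gave 1.04, and leaving out IgG replicate 2 gave -0.14. None of these 4 values passed the test. In those cells, summed B-cell markers were at 1491 and 33.7 CPM (Anti-CD8) and 15.3 and 37.9 CPM (IgG), with Pax5 at 0 in all 4 libraries, so Anti-CD8 replicate 1 was also apart there; their part in the Gzmb level was not tested.

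Among T cells without a CD8 UMI, no member of 6 tested passed (0% of 8566 genes called by edgeR's quasi-likelihood test, 269 with an unadjusted p under 0.05, and 0 genes by DESeq2). Gzmk stood at 97.7 and 109 CPM in Anti-CD8 and 30.5 and 99.8 CPM in IgG cells (0.42, SE 0.29, adjusted p = 0.999), with IgG replicate 1, of 54 cells, below the rest. Nkg7 stood at 428 and 474 CPM in Anti-CD8 and 308 and 453 CPM in IgG cells (0.21), and Ctsw at 198 and 214 CPM in Anti-CD8 and 139 and 179 CPM in IgG cells (0.33). For Prf1, Gzmb and Gzma the log2 fold changes were 0.22, -0.10 and 0.25, and each changed sign when 1 library was left out. Gzmk was called without IgG replicate 2 (1.71), which left the 54 cells of IgG replicate 1 alone in their group, with the spread taken from the Anti-CD8 libraries. The difference of the antibody effect between the 2 splits was tested as an interaction, and no member passed (0.0218% of 9189 genes called). For Nkg7 it was -0.44 (SE 0.19, adjusted p = 0.934), and for Gzmk -0.68 (SE 0.33, adjusted p = 0.975). For Gzmb it was 0.31, and it was called in opposite directions when Anti-CD8 replicate 2 was left out (1.74) or replicate 1 of that group (-1.80). Each of these fits had 1 Anti-CD8 library, which was assumed to vary like the IgG libraries.

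**Figure D3:**
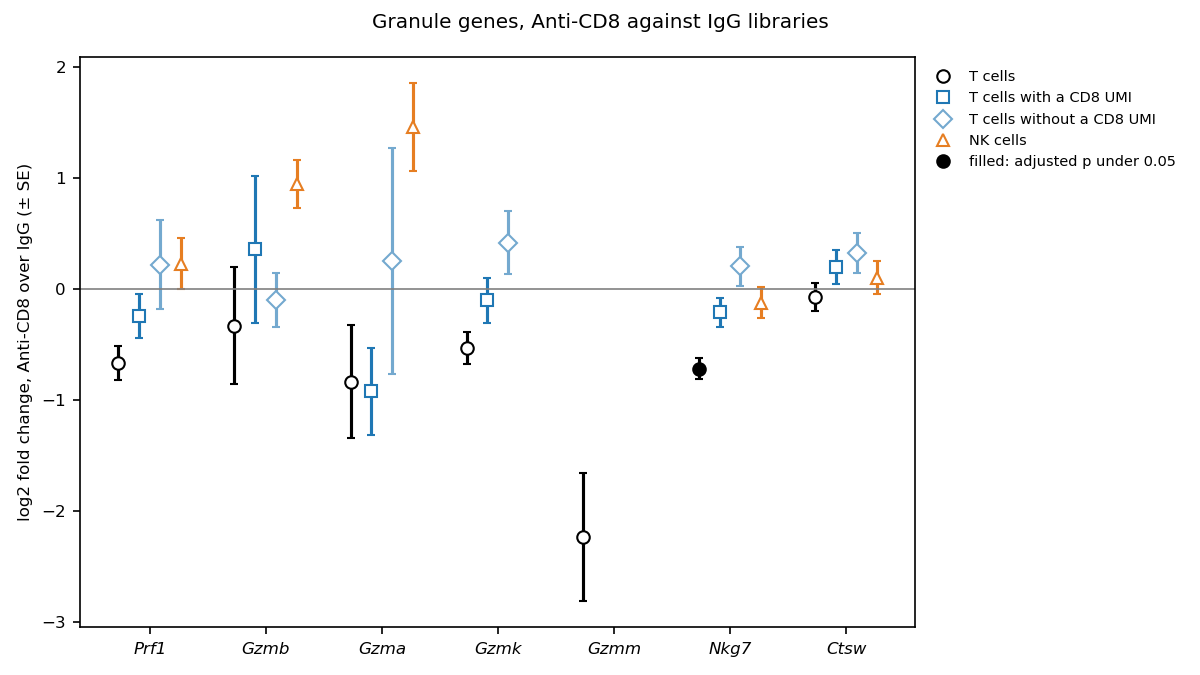
Log2 fold change (± SE) of each granule gene, Anti-CD8 over IgG, in all T cells, T cells with a CD8 UMI, T cells without a CD8 UMI and NK cells; genes that were not tested have no symbol. A filled symbol marks an adjusted p under 0.05 in edgeR's quasi-likelihood test, which Nkg7 in T cells alone reached, at -0.71.

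In the rest of the pathway, 1 gene of the 6 lists passed in T cells, in a fit where 0.75% of 10270 genes were called. Serpinb1a rose to 175 and 138 CPM in Anti-CD8 T cells, against 36.4 and 53.0 CPM in IgG T cells, on the scale normalised between libraries (log2 fold change 1.78, SE 0.19, adjusted p = 0.0088). It was the 1 called of 4 tested genes of the inhibitor list, and it is the gene that fell by 4.38 with a CD8 UMI. Within the splits it did not pass, at 1.46 with a CD8 UMI (adjusted p = 0.506) and 0.42 without (adjusted p = 0.999). No gene passed among 8 of maturation, 9 of release, 8 death ligands and cytokines and 9 transcription factors. Those with the smallest p were Calr (0.45, adjusted p = 0.145) and Cst7 (-0.46, adjusted p = 0.259), Stx11 (0.70, adjusted p = 0.128) and Lyst (0.64, adjusted p = 0.185), Ccl5 (-0.73, adjusted p = 0.118) and Ccl4 (-0.64, adjusted p = 0.174), and Runx3 (-0.41, adjusted p = 0.199) and Hopx (-0.38, adjusted p = 0.204).

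In NK cells, Gzma and Gzmb stood higher in both Anti-CD8 libraries than in both IgG libraries, without passing the test. Gzma stood at 996 and 523 CPM (570 and 613 UMIs) in Anti-CD8 and 103 and 370 CPM (15 and 161 UMIs) in IgG NK cells (log2 fold change 1.46, SE 0.40, unadjusted p = 0.00398, adjusted p = 0.697). Gzmb stood at 351 and 268 CPM in Anti-CD8 and 164 and 156 CPM in IgG NK cells (0.95, SE 0.22, adjusted p = 0.456). Neither gene's groups overlapped. Of 6170 genes none was called (0%), 5 members were tested, and 356 genes had an unadjusted p under 0.05; DESeq2 called 3 genes and no member. The IgG NK class was small. Among the 5 members tested with all libraries, Gzma (1.02) and Gzmb (0.97) were called without IgG replicate 1. Without IgG replicate 2, which left the 17 NK cells of IgG replicate 1, Gzma (2.88) was called. Members with too few UMIs over all libraries can enter such fits, and their calls are counted below but not named here. In these fits the spread came from the Anti-CD8 libraries alone, so the calls carry no replicate check of the IgG group. A fit limited to NK cells without a Cd3 UMI, added after seeing the data, gave 1.92 for Gzma and 0.87 for Gzmb (adjusted p = 0.859 for both).

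The Gzma of NK cells came from few cells. A Gzma UMI was found in 17 and 21 Anti-CD8 and 2 and 9 IgG NK cells, or 23.3% and 17.2% of Anti-CD8 and 11.8% and 19.1% of IgG NK cells. These shares overlapped between the antibodies, although the summed levels did not. Over all libraries, 23 cells with at least 10 UMIs held 93.7% of the 1359 Gzma UMIs, 6 cells held 50% of them, and the highest cell had 206. Gzmb was carried by more cells, 38.4% and 36.1% of Anti-CD8 and 23.5% and 31.9% of IgG NK cells, and 13 cells held 50% of its 607 UMIs.

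For the remaining members, the values in NK cells lay closer to 0. The log2 fold change was 0.23 for Prf1 (SE 0.23, adjusted p = 0.934), -0.12 for Nkg7 (SE 0.14, adjusted p = 0.949, and 0.05 without IgG replicate 1) and 0.11 for Ctsw (SE 0.15, adjusted p = 0.973). Gzmk and Gzmm had too few UMIs to be tested with all libraries, at most 21 and 5 in a library. Markers of T cells summed to 1926 and 2187 CPM in the Anti-CD8 and 3430 and 2724 CPM in the IgG NK class, and their part in these differences was not tested.

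The pathway gene with the smallest p in NK cells was Gzmc, a granzyme encoded beside Gzmb and close to its paralogs in sequence, so that the counting may have split or merged their reads. It had 280 and 1162 UMIs in 21 and 36 Anti-CD8 NK cells, and 4 and 38 UMIs in 2 and 4 IgG NK cells. Its log2 fold change was 3.43 (SE 0.42), with an adjusted p of 0.0535 that missed the threshold. Of the 63 Gzmc-positive NK cells, 43 had a Gzmb UMI and 12 a Gzma UMI, and 7 cells held 50% of the 1484 Gzmc UMIs. T cells held 2 and 0 Gzmc UMIs in the Anti-CD8 and 0 and 21 in the IgG libraries. Ccl5, a chemokine stored in cytotoxic cells, had a log2 fold change of -0.9998 (adjusted p = 0.129) in NK cells.

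Which cells held the granule transcripts also differed between libraries. NK cells held 96.9% and 93.2% of Gzma UMIs in the Anti-CD8 and 18.1% and 68.8% in the IgG libraries. For Prf1, the NK share was 39.5% and 65.7% (Anti-CD8) and 9.82% and 12.4% (IgG), and for Nkg7 21.1% and 43.4% (Anti-CD8) and 4.98% and 5.8% (IgG). For Ctsw it was 29.8% and 52.2% (Anti-CD8) and 7.97% and 13.5% (IgG). Each of these ranges was higher in the Anti-CD8 libraries. The NK class was larger in those libraries as well, with 0.976% and 1.56% of Anti-CD8 cells and 0.278% and 0.747% of IgG cells. Gzmk was held by T cells throughout, at 94.3% and 89.4% (Anti-CD8) and 92.8% and 92.3% (IgG). For Gzmb the T-cell share was 74.7% and 27.0% (Anti-CD8) and 86.2% and 89.0% (IgG).

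**Figure D4:**
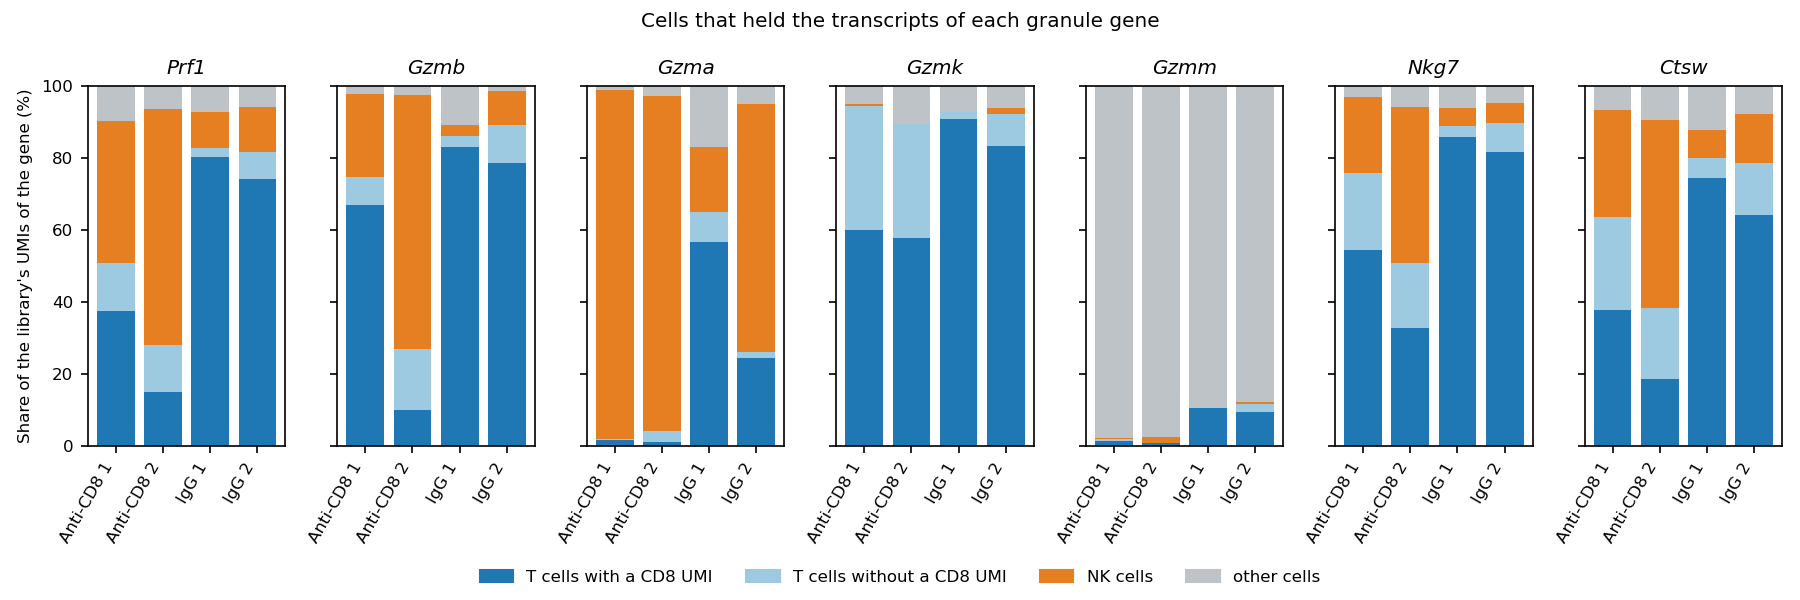
Share (%) of each library's UMIs of a granule gene that lay in T cells with a CD8 UMI, T cells without one, NK cells and other cells. Each stacked bar is 1 library, with the Anti-CD8 libraries left of the IgG libraries. The NK part of Prf1, Nkg7 and Ctsw was larger in both Anti-CD8 libraries, Gzmk lay in T cells throughout and Gzmm in other cells.

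Summed over all cells, no member of 7 passed (0% of 23675 genes called, 996 with an unadjusted p under 0.05). Gzma stood at 4.22 and 4.23 CPM in the Anti-CD8 and 0.584 and 1.66 CPM in the IgG libraries (1.88, SE 0.45, adjusted p = 0.988), and DESeq2 called it (1.88, adjusted p = 0.00204). Nkg7 (-1.10) and Gzmk (-1.48) had unadjusted p of 0.0125 and 0.0132, and Nkg7 was called without IgG replicate 1 (-1.51), where the lone IgG library was assumed to vary like the Anti-CD8 libraries. In such sums, fewer cells of a type and less RNA per cell cannot be told apart. In the other named classes with at least 20 cells in each library, no member passed: 2 were tested in endothelial cells, 3 in microglia and 1 each in ependymal cells, macrophages and mural cells, with 0.00701% of genes called in ependymal cells, 0.00769% in neurons, where no member was tested, and 0% in the other classes. An exact permutation test was not used, because its smallest two-sided p with 2 libraries in each group is 0.33.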

How the data were processed

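The deposited values were raw counts of UMIs for each gene in each barcode, made by the authors with Cell Ranger 7.1.0 on GRCm39, per the submitters' processing notes. The gene annotation and the handling of intronic reads were not given in the sources used here. Barcodes under 300 genes or over 20% mitochondrial UMIs were left out, and the cells with the highest doublet scores were removed, 0.8% of a library per 1000 cells (511 and 562 Anti-CD8, 332 and 353 IgG). A further 87 barcodes occurred in more than 1 library, of which 70 were kept cells (6 T cells and 1 NK cell). Clustering used scanpy 1.11.5 with leidenalg 0.10.2 (3000 variable genes, 30 components, 15 neighbours, resolution 1, 29 clusters), without the granule genes, CD8 genes, sex-linked genes and genes of T-cell receptors and immunoglobulins. Clusters were named from marker lists (mean log2 fold of at least 1.5, margin 0.3).

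UMIs were summed per library and cell group and compared by the quasi-likelihood test in edgeR 4.0.16 (TMM scaling, edgeR's expression filter, R 4.3.3), Anti-CD8 over IgG, with Benjamini-Hochberg adjustment over all genes tested and a threshold of 0.05. Every adjusted p comes from this test unless DESeq2 1.42.0 is named. SEs were derived from the test, as the size of the log2 fold change over the root of F. The test was checked on simulated counts that gave every gene the same spread between libraries. That check does not cover genes with a wider spread, such as Gzmb in T cells with a CD8 UMI. Intervals and limits for shares of 0 (3 counts) cover counting error only. The libraries were no copies of each other (chi-square per degree of freedom 31.5 to 48.9). The granule genes, the gene lists, the markers and the naming thresholds were chosen with earlier results of these data known. All members are reported; of the pathway lists, the genes called and otherwise the 2 with the smallest p are named, and Gzmc was followed per cell after its value was seen. Promoters and gene order were read from RefSeq tables, where 6 of 7 members had a promoter and all 7 had a place in the gene order. Alternatives covered DESeq2, no TMM, no filter, doublets, cell filter, resolution, variable genes, each library left out, a replicate block, the CD8 split and thinning.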

Additional observations from a re-analysis of the deposited data

How the results depend on the processing

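With all 4 libraries, the fall of Nkg7 in T cells kept its direction under each alternative run (-0.84 to -0.43), and lost the threshold in the larger cluster alone. Counts of members called moved as follows: in T cells, 1 in the fit as reported, 4 without the expression filter (559 genes called against 77), 3 with the replicate block (241 genes), 0 in the larger cluster alone (22 genes) and 0 to 1 with a library left out (32 to 183 genes); without TMM 127 genes were called. In NK cells the count was 3 without the filter and 0 to 3 with a library left out, in T cells without a CD8 UMI 0 to 1, over all cells 0 to 1 and 1 by DESeq2 (70 genes), for the interaction 0 to 1, and for the CD8 split 3 against Cd4-only T cells. The replicate numbers did not pair the libraries (correlation of same-numbered deviations -0.0229 in T cells and 0.0305 over all cells); the replicate block added Gzmk (-0.53, adjusted p = 0.0488) and Gzmm (-2.36, adjusted p = 0.0485) in T cells and gave 0 members in NK cells and in the T cells of each split. Leaving out 1 library gave, for results whose direction changed, ranges of -1.63 to 0.41 (Gzmb) and -0.21 to 0.071 (Ctsw) in T cells, -1.88 to 1.15 (Gzmb) and -0.41 to 0.16 (Gzmk) with a CD8 UMI, -1.15 to 1.52 (Gzma), -0.37 to 0.14 (Gzmb) and -0.026 to 1.01 (Prf1) without one, -0.29 to 0.048 (Nkg7) in NK cells, -0.96 to 0.11 (Gzmb), -0.99 to 0.27 (Prf1) and -0.62 to 0.19 (Ctsw) over all cells, and -2.07 to 2.29 (Gzma), -1.80 to 1.74 (Gzmb) and -0.45 to 0.11 (Ctsw) for the interaction. Direction also changed for Ctsw in the larger T-cell cluster (0.0086), Gzmb with a CD8 UMI under the replicate block (-0.044), Gzmb without a CD8 UMI with members among the variable genes (0.00032), and Gzma at resolution 2 (1.33 with a CD8 UMI, -2.25 without, 3.59 for the interaction), by DESeq2 (-0.11 without a CD8 UMI), and in the split without doublet removal (-0.13) and against Cd4-only T cells (-0.42). No cause was tested. The share of cells with a member UMI, 81.3% of Anti-CD8 and 91.2% of IgG T cells and 97.5% of Anti-CD8 and 100% of IgG NK cells, was 72.1%, 85.3%, 93.5% and 93.9% in the same order at 2000 UMIs and 58.3%, 73.8%, 76.5% and 73.6% at 1000 UMIs. Without doublet removal, Anti-CD8 T cells held 5.21% of Gzma and 2.49% of Gzmm UMIs, Anti-CD8 NK cells 86.5% of Gzma UMIs, and IgG T cells 12.98% of Gzmm UMIs. Depth limits Gzmm, with 2 to 26 UMIs in the T cells of a library, and the NK class of IgG replicate 1, with 17 cells.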

Other observations

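The genes most like each granule gene across the tissue were found by Pearson's r of log2(CPM + 1) over 73 sums of a class and library (19 classes), which share libraries and depth, so r is a description. Gzma was closest to the NK-receptor genes Klra7 (r = 0.963) and Klra9 (0.961), Gzmb to Klrc1 (0.974), Prf1 to Apol7e (0.971), Ctsw to Xcl1 (0.955), Nkg7 to Cd3d (0.960) and Gzmk to Cd8b1 (0.920). Gzma and Gzmk, adjacent in the genome, had r = 0.530 with each other. Gzmm was closest to Rybp (0.726), a gene that is not specific to lymphocytes, and its r with Gzma was 0.142.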
